A study of Homo sapiens with 12 samples.

Results

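The genes of xenobiotic metabolism and efflux were followed by RNA-seq across 4 stable lines of HCT116, a human colorectal cancer cell line. The group comprised 49 genes chosen by name for their roles in drug and toxin handling, out of 28395 genes counted. UGT1A genes were left out because they share exons. Of the 49 genes, 47 passed the filter on low counts (at least 0.5 CPM, read counts scaled to the size of the library, in at least 3 libraries) and were tested among 15853 genes. ADH1C, an alcohol dehydrogenase, and GSTM3, a glutathione S-transferase, did not pass, with at most 17 reads each in any library. HCT116-EV cells carried the empty pcDNA vector and were selected with geneticin as clones. HCT116-EHF cells were geneticin-selected clones with a pcDNA3.1 plasmid for the ETS factor EHF. HCT116-CDX1 cells carried CDX1, an intestinal homeobox factor, on an MSCV-IRES-GFP retrovirus and were sorted for GFP without geneticin. HCT116-EHF+CDX1 cells were geneticin-resistant clones of the CDX1 line transfected with EHF, so that vector, selection and clone differ between lines together with the factors, and their parts cannot be told apart, and the lines are called EV, EHF, CDX1 and EHF+CDX1 cells below. Each line was grown in DMEM-F12 with 10% foetal calf serum and had 3 libraries, 12 in all. The study describes the RNA-seq behind its clustering as biological replicates, fewer of them than the libraries of a line used here, and the sources do not say which libraries came from separate cultures, so that p-values measure only the spread between these libraries, which may be technical. The study asked how restoring EHF and CDX1 changes the expression programme of poorly differentiated colon cancer cells.

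Xenobiotic metabolism is usually divided into phases. Phase I enzymes, mainly cytochrome P450 oxidases with their electron donor POR, aldehyde dehydrogenases, esterases and epoxide hydrolases, expose or create a reactive group on a foreign or internal compound. Phase II enzymes couple that group to glutathione, sulfate or acetate, and ATP-driven pumps of the ABC family then carry the product out of the cell. The ligand-activated receptors AHR, with its partner ARNT, and NR1I2 (the pregnane X receptor) switch on many of these genes, and in the gut the system sits in the absorptive epithelium and limits the entry of drugs and dietary toxins.

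Promoter sequences were taken for the 6 members with the largest called changes in EHF+CDX1 compared to EV cells at a mean log2 CPM of at least 0, a level that NR1I2 did not reach, and are shown because letters of the kind bound by ETS factors (GGAAG), caudal homeobox factors (TTTAT) and the AHR and ARNT pair (GCGTG) can be read in them. They are RefSeq sequences of the GRCh38.p14 assembly, from 250 bases before to 50 after an annotated start, which had entries for 36 of the 49 members. Capitals mark each match on either strand, so that a match on the opposite strand appears as the reverse complement, and none of the 3 motifs overlapped another in these windows. CES1, ALDH3A1 and CYP24A1 also belong to this set.
ALDH1A1, chr9:72953004-72953303, minus strand: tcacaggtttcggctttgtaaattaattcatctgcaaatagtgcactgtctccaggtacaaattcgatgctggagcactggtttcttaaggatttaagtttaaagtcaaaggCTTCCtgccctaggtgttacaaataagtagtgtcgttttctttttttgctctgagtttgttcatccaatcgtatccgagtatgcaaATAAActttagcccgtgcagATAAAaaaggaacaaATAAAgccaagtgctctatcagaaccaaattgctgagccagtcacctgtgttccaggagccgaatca
ABCB1, chr7:87713246-87713545, minus strand: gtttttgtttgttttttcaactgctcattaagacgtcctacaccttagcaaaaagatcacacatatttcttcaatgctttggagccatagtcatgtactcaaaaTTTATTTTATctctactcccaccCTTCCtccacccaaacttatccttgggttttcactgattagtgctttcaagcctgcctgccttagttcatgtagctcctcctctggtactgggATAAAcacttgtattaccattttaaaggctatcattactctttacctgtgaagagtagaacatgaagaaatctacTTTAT
ABCB1, chr7:87600835-87601134, minus strand: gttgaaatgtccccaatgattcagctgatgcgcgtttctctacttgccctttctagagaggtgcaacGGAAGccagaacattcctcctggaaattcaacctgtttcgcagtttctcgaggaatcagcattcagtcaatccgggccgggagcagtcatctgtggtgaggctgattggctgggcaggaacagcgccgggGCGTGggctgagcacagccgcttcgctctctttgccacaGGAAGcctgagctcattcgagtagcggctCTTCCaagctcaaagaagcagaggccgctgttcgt
CYP2J2, chr1:59926724-59927023, minus strand: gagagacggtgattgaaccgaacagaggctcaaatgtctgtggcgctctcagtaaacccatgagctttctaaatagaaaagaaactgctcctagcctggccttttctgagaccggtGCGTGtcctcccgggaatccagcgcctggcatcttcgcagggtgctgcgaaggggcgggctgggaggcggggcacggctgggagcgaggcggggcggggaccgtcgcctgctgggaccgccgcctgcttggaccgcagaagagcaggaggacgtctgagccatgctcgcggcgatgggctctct
The ALDH1A1 window (a retinaldehyde dehydrogenase) held 3 TTTAT matches and 1 GGAAG match, all on the opposite strand and before the start. The first of the annotated starts of ABCB1 (the drug pump P-glycoprotein) held 4 TTTAT matches and 1 GGAAG match, while the second held 3 GGAAG matches, 1 GCGTG match and no TTTAT. CYP2J2, a P450 that forms epoxides from fatty acids, had 1 GCGTG match alone. Such letters are common. GGAAG occurred in 71.9% of all 35116 promoters of the table and in 74.1% of the 54 promoters of members, TTTAT in 34.9% and 29.6%, and GCGTG in 36.5% and 31.5%. Among the 11 promoters of members called higher in EHF+CDX1 over EV cells the shares were 81.8%, 18.2% and 45.5%. A match describes the sequence and is neither a binding site nor a cause.

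Total counts ranged from 13523007 to 74186741 per library, and levels below are CPM after TMM scaling of library size. The TMM factors of the CDX1 libraries (0.799 to 0.845) were below those of all others (0.973 to 1.09), so that comparisons with CDX1 cells depend on the scaling. The introduced factors followed the labels. EHF was 299 ± 54.4 CPM in EV, 19300 ± 305 in EHF, 12.3 ± 0.603 in CDX1 and 18700 ± 1430 in EHF+CDX1 cells, and CDX1 was 525 ± 35.8 CPM in CDX1 and 5420 ± 277 in EHF+CDX1 cells (SD, n = 3 each), with at most 4 reads per library elsewhere. The 2 lines with CDX1 therefore differed in its level. The 8 colonic epithelial markers summed to 2780 to 3330 CPM in CDX1 and to 4510 to 5650 CPM in the other lines, but they did not move together. By mean, KRT8, KRT18, KRT19 and CLDN3 were lowest in CDX1 (1010, 565, 439 and 11.2 CPM, against 2180, 1020, 1330 and 21.3 in EV). EPCAM and CLDN4 were highest there (491 and 395 CPM, against 265 and 275 in EV). CDX2 in CDX1 cells was above EV (39.9 against 29.9 CPM) and was highest in EHF+CDX1 (57.9 CPM). CDH1 was 117 CPM in CDX1, 102 in EHF and 111 in EHF+CDX1 by mean. In the EV libraries CDH1 was at 134, 129 and 374 CPM, so that its EV mean of 213 CPM rests on replicate 3. The 7 mesenchymal markers summed to 176 to 228 CPM in CDX1 and to 38.6 to 80.9 CPM elsewhere, most of it COL1A1 in CDX1 cells, with DCN and LUM near 0. The 7 hepatocyte markers summed to 5.46 to 7.95 CPM in EHF+CDX1 and to 1.25 to 4.04 CPM elsewhere, with ALB at or near 0. Most of the sum in EHF+CDX1 was SERPINA1 (mean 5.83 CPM, against means of 1.38 to 2.77 CPM in the other lines). Of the 5 immune markers, LYZ made up most of the 18.5 to 20.2 CPM in EHF+CDX1, and the sum elsewhere was 0.172 to 3.94 CPM. The part of these shifts in the results was not tested, and in bulk RNA fewer cells of a type and less RNA per cell cannot be told apart. EV replicate 3 stood apart: its counts differed from those of replicates 1 and 2 by a chi-square statistic of 329 and 299 for each degree of freedom, while replicates 1 and 2 gave 4.29 between them. The CDX1 libraries also differed among themselves, at 20 to 48.1, against 3.23 to 7.7 within the EHF and EHF+CDX1 lines. The calls of members that change without EV replicate 3 are named.

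On the per-length scale, the deposited log2 RPKM, the phase II enzyme GSTP1 was the most abundant member in every line, at 8.52 ± 0.90 in EV, 8.97 ± 0.05 in EHF, 7.61 ± 0.15 in CDX1 and 8.90 ± 0.02 in EHF+CDX1 cells (SD, n = 3 each). It conjugates electrophiles to glutathione. The next places changed with the line. ALDH1A3, a retinaldehyde dehydrogenase, came second in EV (6.15), EHF (7.37) and EHF+CDX1 cells (6.73), and ALDH2, which oxidizes acetaldehyde in mitochondria, came second in CDX1 cells (5.51). CYP24A1, the mitochondrial P450 that inactivates the vitamin D hormone, was the most abundant P450 in EHF (6.56) and EHF+CDX1 cells (6.18), above POR (5.59 and 5.90). In EV and CDX1 cells POR was higher (6.01 and 5.42) than CYP24A1 (2.42 and 1.96). ABCC1 was the most abundant pump in all 4 lines (4.19 to 5.16) and ABCG2 the least (-1.73 to -0.07). The median over the 47 members ranged from 2.19 in EV to 2.67 in EHF cells. Log2 RPKM below 0 was seen for 12 members in EV, 14 in EHF, 17 in CDX1 and 10 in EHF+CDX1 cells.

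**Figure D1:**
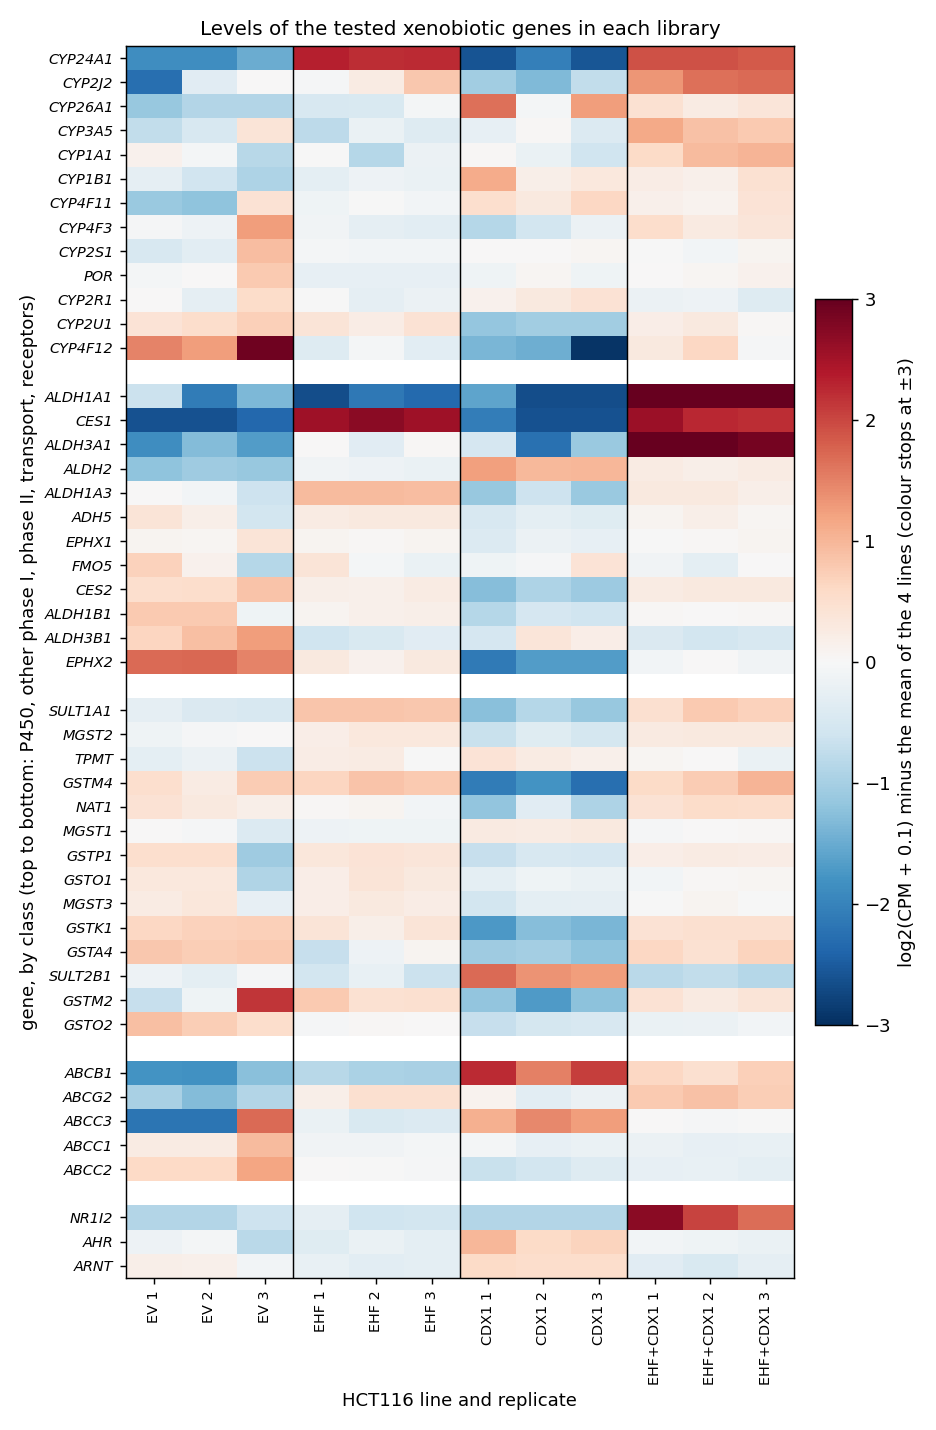
Level of each of the 47 tested genes (rows, grouped by class and ordered by the change in EHF+CDX1 over EV cells) in the 12 libraries (columns), as log2(CPM + 0.1) minus the mean of the 4 lines, with red above and blue below that mean and the colour stopping at 3 on the log2 scale. ALDH1A1, ALDH3A1 and NR1I2 are red in EHF+CDX1 alone, CYP24A1 and CES1 in both EHF lines and ABCB1 most in CDX1, while EV replicate 3 differs from the other EV libraries in ABCC3, GSTM2 and the CYP4F genes.

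In EHF+CDX1 compared to EV cells, 10 of the 47 members were higher and 5 were lower in edgeR's quasi-likelihood test against a 1.5-fold change at an adjusted p of 0.05. The background was 7.30% of all genes called higher and 3.13% called lower. The higher members were ALDH1A1, ALDH2, ALDH3A1, CES1, CYP2J2, CYP24A1, SULT1A1, ABCB1, ABCG2 and NR1I2, and the lower ones were ABCC2, ALDH3B1, CYP4F12, EPHX2 and GSTO2. ALDH1A1, CES1 and NR1I2 passed the filter on low counts only through lines in which they were high and so had to differ, and no p-value is given for them below. By class, 3 of the 13 genes of the P450 system, 6 of the 12 other phase I genes, 2 of the 14 phase II genes, 3 of the 5 pumps and 1 of the 3 receptors were called. The median log2 fold change was 0.05 over the members and -0.03 over all genes, so the list as a whole lay close to the centre of all genes while single members moved far. Without EV replicate 3, 13 members were higher and 5 lower, against 11.2% and 4.40% of all genes.

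With EHF alone, 7 members were higher and 3 lower than in EV cells, where 5.68% of all genes were called higher and 2.65% lower. With CDX1 alone, 7 were higher and 12 lower, and the background was 21.3% and 23.3%, against 14.9% and 25.5% of the members. Library totals without TMM turned this split into 4 higher and 21 lower and moved the median over all genes from -0.03 to -0.37. In EHF+CDX1 compared to CDX1 cells, 21 members were higher and 5 lower, where the background was 22.3% and 18.7%. The median there was 0.67 over the members and 0.04 over all genes, and with library totals alone 1.02 and 0.39. Finally, 4 members were higher in EHF+CDX1 than in EHF cells (ALDH1A1, ALDH3A1, ABCB1 and NR1I2), where 2.49% of all genes were called higher and 0.189% lower. In that comparison 0 members were lower in edgeR's test or in DESeq2, 0 had an unadjusted p under 0.05 against a 1.5-fold change, and 3 had one against no change. EV replicate 3 enters here only through the estimate of spread and the scaling that all libraries share. Without it, 6 members were higher, CYP1A1 and CYP3A5 being added, and 0 lower, with 3.32% of all genes called higher and 0.826% lower.

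Against no change in place of a 1.5-fold change, 15 members were higher and 10 lower in EHF+CDX1 over EV cells, where 16.9% and 16.7% of all genes were called. With EHF alone the counts were 10 and 11 (background 14.9% and 15.1%), and with CDX1 alone 11 and 22 (33.8% and 35.1%). EHF+CDX1 over EHF cells gave 7 and 1 (5.65% and 4.13%), EHF+CDX1 over CDX1 cells 28 and 8 (34.9% and 32.3%) and the interaction 24 and 7 (30.2% and 28.3%). The 1 member lower in EHF+CDX1 than in EHF cells by this test was ALDH1A3 (-0.69, edgeR adjusted p = 0.0223 against no change).

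**Figure D2:**
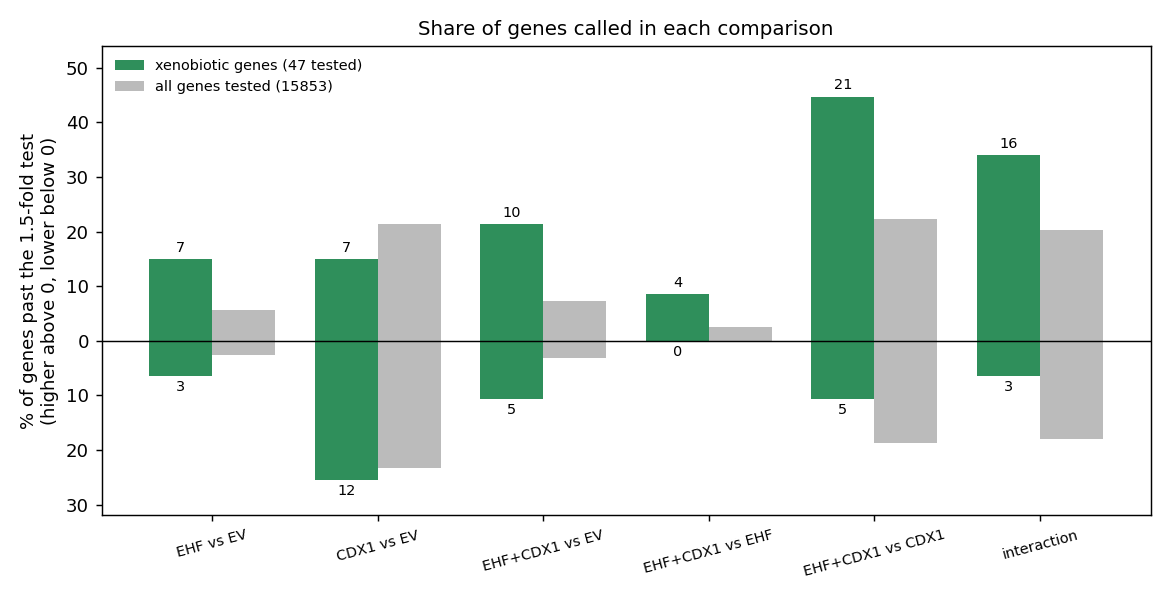
Percent of genes past edgeR's test against a 1.5-fold change in 6 comparisons (x axis), higher above 0 and lower below it, for the 47 members (green, with the number called) and all 15853 genes (grey). The members' share called higher exceeds that of all genes in every comparison but CDX1 vs EV, where it is the smaller (7 genes, 14.9% against 21.3%). It is 21.3% against 7.30% in EHF+CDX1 vs EV (10 genes), 44.7% against 22.3% in EHF+CDX1 vs CDX1 (21 genes) and 14.9% against 5.68% in EHF vs EV (7 genes). The calls include ALDH1A1, CES1 and NR1I2, which passed the filter on low counts only through lines in which they were high.

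Among the P450 genes, CYP24A1 rose most in the lines with EHF. CYP24A1 (chr20:54143538-54173986) was at 17.0, 17.1 and 22.1 CPM in the EV libraries, 313, 288 and 292 in EHF, 10.2, 14.9 and 10.4 in CDX1 and 232, 233 and 223 in EHF+CDX1 libraries. The 6 libraries with introduced EHF all lay above the 6 without it. Its log2 fold change over EV was 3.99 in EHF (SE 0.16, edgeR adjusted p = 2.5e-08) and 3.61 in EHF+CDX1 cells (SE 0.16, edgeR adjusted p = 4.8e-08), and the interaction of the factors was 0.29 and did not pass (SE 0.21, edgeR adjusted p = 0.893). Here and below, the adjusted p is that of the test against a 1.5-fold change unless another is named, and the interaction is the change EHF went with on the CDX1 background (EHF+CDX1 over CDX1) minus its change without CDX1 (EHF over EV), on the log2 scale. The vitamin D receptor gene VDR, for which CYP24A1 is a textbook target, was at 20.5 ± 1.79, 52.7 ± 1.64, 20.8 ± 2.08 and 50.2 ± 1.81 CPM in the EV, EHF, CDX1 and EHF+CDX1 lines (SD, n = 3 each). It was singled out after its values were seen, and passed the test in EHF (1.36, SE 0.10, edgeR adjusted p = 3.3e-05) and EHF+CDX1 cells (1.29, SE 0.10, edgeR adjusted p = 4.8e-05). A link between the levels of VDR and CYP24A1 in these cells was not tested.

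CYP2J2 (chr1:59893308-59969212) was at 0.215, 1.09 and 1.43 CPM in EV, 1.38, 1.68 and 2.54 in EHF, 0.635, 0.505 and 0.798 in CDX1 and 3.70, 4.65 and 4.77 in EHF+CDX1 libraries. All 3 EHF+CDX1 libraries were above the other 9. Its log2 fold change in EHF+CDX1 cells was 2.18 over EV (SE 0.45, edgeR adjusted p = 0.0122) and 2.75 over CDX1 cells (SE 0.46, edgeR adjusted p = 6.2e-04). Over EHF cells it was 1.19 and did not pass (SE 0.42, edgeR adjusted p = 0.719). The call over EV cells was lost when only the EV and EHF+CDX1 libraries were fitted (2.2, edgeR adjusted p = 0.0883). The lowest EV value rested on 5 reads. In EHF over EV cells it was 0.99 and not called, and 1.62 and called without EV replicate 3.

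CYP4F12 (chr19:15673087-15697174), a fatty acid hydroxylase, was at 6.55, 5.54 and 17.6 CPM in EV, 1.70, 2.16 and 1.79 in EHF, 0.811, 0.758 and 0.206 in CDX1 and 2.81, 3.53 and 2.21 in EHF+CDX1 libraries. Every EV library was above the rest, and the CDX1 line was lowest. The log2 fold change over EV was -2.40 in EHF (SE 0.46, edgeR adjusted p = 0.00943), -4.06 in CDX1 (SE 0.52, edgeR adjusted p = 4.8e-05) and -1.78 in EHF+CDX1 cells (SE 0.45, edgeR adjusted p = 0.0482). Without EV replicate 3 these were -1.67, -3.33 and -1.04, and the last no longer passed (edgeR adjusted p = 0.105). It also failed without any 1 of the EHF+CDX1 libraries, at -1.95 to -1.66 (edgeR adjusted p from 0.091 to 0.154), and in the limma voom fit (-1.93, adjusted p = 0.0544). With only the EV and EHF libraries fitted, the change in EHF over EV cells did not pass (-2.38, edgeR adjusted p = 0.0527). CYP4F genes lie side by side on chromosome 19 and share sequence, so that reads may have been split between them.

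The AHR targets CYP1A1 and CYP1B1, which oxidize aromatic hydrocarbons, were low in all lines. CYP1A1 (chr15:74719542-74725528) was at 2.07, 1.8 and 1.01 CPM in EV, 1.86, 0.987 and 1.66 in EHF, 1.93, 1.62 and 1.21 in CDX1 and 2.85, 3.72 and 3.94 in EHF+CDX1 libraries. The EHF+CDX1 libraries were above all others. Its log2 fold change over EV was 1.13 and did not pass the 1.5-fold test (SE 0.32, edgeR adjusted p = 0.142, and 0.018 against no change), while over CDX1 it was 1.13 and passed (SE 0.31, edgeR adjusted p = 0.0448). The latter call was lost without CDX1 replicate 2 or 3 or EHF+CDX1 replicate 2 or 3, at 0.97 to 1.14 (edgeR adjusted p from 0.0811 to 0.132), and was 0.72 in the limma voom fit (adjusted p = 0.654). CYP1B1 (chr2:38067509-38076151) was at 1.72, 1.37 and 1.05 CPM in EV, 1.70, 1.89 and 1.81 in EHF, 4.62, 2.37 and 2.62 in CDX1 and 2.46, 2.33 and 2.90 in EHF+CDX1 libraries. Both lines with CDX1 were above EV in every library, and their ranges overlapped each other. Its log2 fold change passed in CDX1 over EV cells (1.24, SE 0.28, edgeR adjusted p = 0.0143), but without CDX1 replicate 1 it was 0.88 (edgeR adjusted p = 0.0933), and with library totals alone it was 0.89 (edgeR adjusted p = 0.108).

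CYP26A1 (chr10:93073475-93077885), which clears retinoic acid, was at 0.301, 0.379 and 0.386 CPM in EV, 0.532, 0.546 and 0.750 in EHF, 2.69, 0.758 and 2.01 in CDX1 and 1.12, 0.949 and 1.04 in EHF+CDX1 libraries. The lines with CDX1 were above those without it, and the CDX1 libraries were the most spread. The CYP26A1 level in EV lay below the filter of 0.5 CPM, so it was tested only because of other lines. No p-value is given for it. The log2 fold change over EV was 2.33 in CDX1 cells (SE 0.43), which was called, and 1.52 in EHF+CDX1 cells (SE 0.44), which was not. Other P450 genes passed only in comparisons with CDX1 cells or in the interaction. CYP2U1, a fatty acid hydroxylase, fell from 7.75 ± 0.858 CPM in EV to 2.42 ± 0.120 in CDX1 cells (-1.68, SE 0.14, edgeR adjusted p = 8.4e-06) and was 5.91 ± 0.496 in EHF+CDX1 cells (SD, n = 3 each). CYP3A5, a drug oxidase, was 2.70 ± 0.351 CPM in EHF+CDX1 and 0.975 to 1.17 CPM on average in the other lines, and passed against CDX1 cells (1.21, SE 0.31, edgeR adjusted p = 0.0259) and in the interaction (1.51, SE 0.44, edgeR adjusted p = 0.0372). It also passed over EV (1.67) and over EHF cells (1.43) without EV replicate 3, but then not in the interaction (0.99). POR and CYP2S1, CYP2R1, CYP4F3 and CYP4F11 passed in none of the 3 comparisons with EV cells when all libraries were used, while without EV replicate 3 CYP4F11 was higher in EHF (1.09), CDX1 (1.63) and EHF+CDX1 cells (1.37).

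The other phase I genes held the largest fitted changes, and 3 aldehyde dehydrogenases rose in EHF+CDX1 over EV cells while ALDH3B1 fell. ALDH1A1 (chr9:72900671-72953053) was at 0.301, 0.0473 and 0.147 CPM in EV, 0, 0.042 and 0.025 in EHF, 0.110, 0 and 0 in CDX1 and 38.2, 39.1 and 46.0 in EHF+CDX1 libraries. It was close to absent in 3 lines, at no more than 8 reads in any library, and held 665 to 2188 reads in the EHF+CDX1 libraries. Its log2 fold change in EHF+CDX1 cells was 7.95 over EV (SE 0.42) and 9.89 over CDX1 cells (SE 0.48), and against the limit of 3 counts per library it was at least 474-fold higher than in EHF cells. The value over CDX1 cells rests on 5 reads in CDX1 replicate 1, since the other two CDX1 libraries held 0 reads, and no fold is given without it. No interaction is given for it, since a fitted value would turn on single reads.

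ALDH3A1 (chr17:19737984-19748298), which oxidizes aromatic and fatty aldehydes, was at 0.388, 0.615 and 0.459 CPM in EV, 1.70, 1.30 and 1.72 in EHF, 1.16, 0.278 and 0.720 in CDX1 and 14.2, 15.1 and 12.8 in EHF+CDX1 libraries. All EHF libraries were above EV, and the EHF+CDX1 libraries were far above the rest. The log2 fold change in EHF+CDX1 cells was 4.86 over EV (SE 0.39, edgeR adjusted p = 4.3e-06) and 3.16 over EHF cells (SE 0.33, edgeR adjusted p = 1.7e-04), and the interaction was 2.56 (SE 0.53, edgeR adjusted p = 0.00367). In EHF over EV cells it was 1.70 (SE 0.39, edgeR adjusted p = 0.0407), a call lost without EV replicate 1 or any 1 EHF library, at 1.60 to 1.83 (edgeR adjusted p from 0.0568 to 0.134), and in the limma voom fit (1.49, adjusted p = 0.262). ALDH2 (chr12:111766933-111817532) was at 22.7, 24.8 and 23.7 CPM in EV, 48.6, 46.7 and 45.2 in EHF, 122, 103 and 104 in CDX1 and 62.4, 59.3 and 62.3 in EHF+CDX1 libraries. The 4 lines did not overlap, with EV lowest and CDX1 highest. It rose over EV in EHF (0.98, SE 0.09, edgeR adjusted p = 0.00167), CDX1 (2.21, SE 0.09, edgeR adjusted p = 1.4e-08) and EHF+CDX1 cells (1.37, SE 0.09, edgeR adjusted p = 8.3e-06). Against CDX1 it fell by 0.84 on the log2 scale in EHF+CDX1 cells (edgeR adjusted p = 0.00457), but that call was lost with library totals alone (-0.48, edgeR adjusted p = 0.878) and in the limma voom fit (-0.55, adjusted p = 1).

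ALDH3B1 (chr11:68008547-68029276), an aldehyde dehydrogenase of lipid aldehydes, was at 42.9, 51.4 and 65.8 CPM in EV, 18.2, 20 and 21.6 in EHF, 19.3, 35.3 and 31.7 in CDX1 and 20.2, 18.8 and 19.6 in EHF+CDX1 libraries. All libraries with an introduced factor were below those of EV. It fell in EHF (-1.42, SE 0.21, edgeR adjusted p = 0.00406) and EHF+CDX1 cells (-1.45, SE 0.21, edgeR adjusted p = 0.00269), and in CDX1 cells -0.89 just missed the threshold (SE 0.20, edgeR adjusted p = 0.0528). Of the remaining aldehyde dehydrogenases, ALDH1A3 rose in EHF (558 ± 5.09 CPM against 251 ± 53.6 CPM, SD, n = 3 each, log2 1.15, SE 0.17, edgeR adjusted p = 0.0103). ALDH1B1, a mitochondrial enzyme, fell in CDX1 cells (59.7 ± 7.11 CPM against 136 ± 43.5 CPM, SD, n = 3 each, log2 -1.18, SE 0.20, edgeR adjusted p = 0.00354).

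CES1 (chr16:55802851-55833096), a carboxylesterase that hydrolyses ester drugs, was at 0, 0 and 0.0184 CPM in EV, 3.46, 3.84 and 3.46 in EHF, 0.0438, 0 and 0 in CDX1 and 3.49, 2.83 and 2.70 in EHF+CDX1 libraries. At most 2 reads were found in any library without introduced EHF. Measured against the limit of 3 counts per library, it was at least 33-fold higher in EHF and at least 27.6-fold higher in EHF+CDX1 than in EV cells, and at least 41.2-fold higher in EHF+CDX1 than in CDX1 cells. A near-identical copy of CES1 lies in the genome, so that its reads may have been split. CES2, the main intestinal carboxylesterase, had another pattern and fell in CDX1 cells, from 61.6 ± 8.62 to 18.4 ± 2.24 CPM (SD, n = 3 each, log2 -1.74, SE 0.12, edgeR adjusted p = 1.0e-06), while it was 47.8 ± 1.17 CPM in EHF+CDX1 cells.

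EPHX2 (chr8:27491143-27548626), the soluble epoxide hydrolase that opens fatty acid epoxides, was at 41.0, 41.8 and 35.3 CPM in EV, 15.5, 13.8 and 15.3 in EHF, 2.83, 3.87 and 3.88 in CDX1 and 11.9, 12.7 and 11.7 in EHF+CDX1 libraries. The lines did not overlap, and the order was EV, EHF, EHF+CDX1, CDX1 from high to low. It fell in EHF (-1.40, SE 0.13, edgeR adjusted p = 1.6e-04), CDX1 (-3.48, SE 0.14, edgeR adjusted p = 8.1e-09) and EHF+CDX1 cells (-1.70, SE 0.13, edgeR adjusted p = 1.7e-05). Adding EHF to CDX1 thus went with a higher level (1.78 over CDX1, SE 0.14, edgeR adjusted p = 3.9e-06), where EHF alone went with a lower one, and the interaction was 3.19 (SE 0.19, edgeR adjusted p = 3.2e-07). EPHX1, the microsomal epoxide hydrolase, ADH5, the formaldehyde-clearing dehydrogenase, and FMO5, a flavin monooxygenase, passed in none of the comparisons with EV cells, with line means of 45.4 to 62.4, 48.7 to 76.7 and 5.67 to 6.71 CPM.

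**Figure D3:**
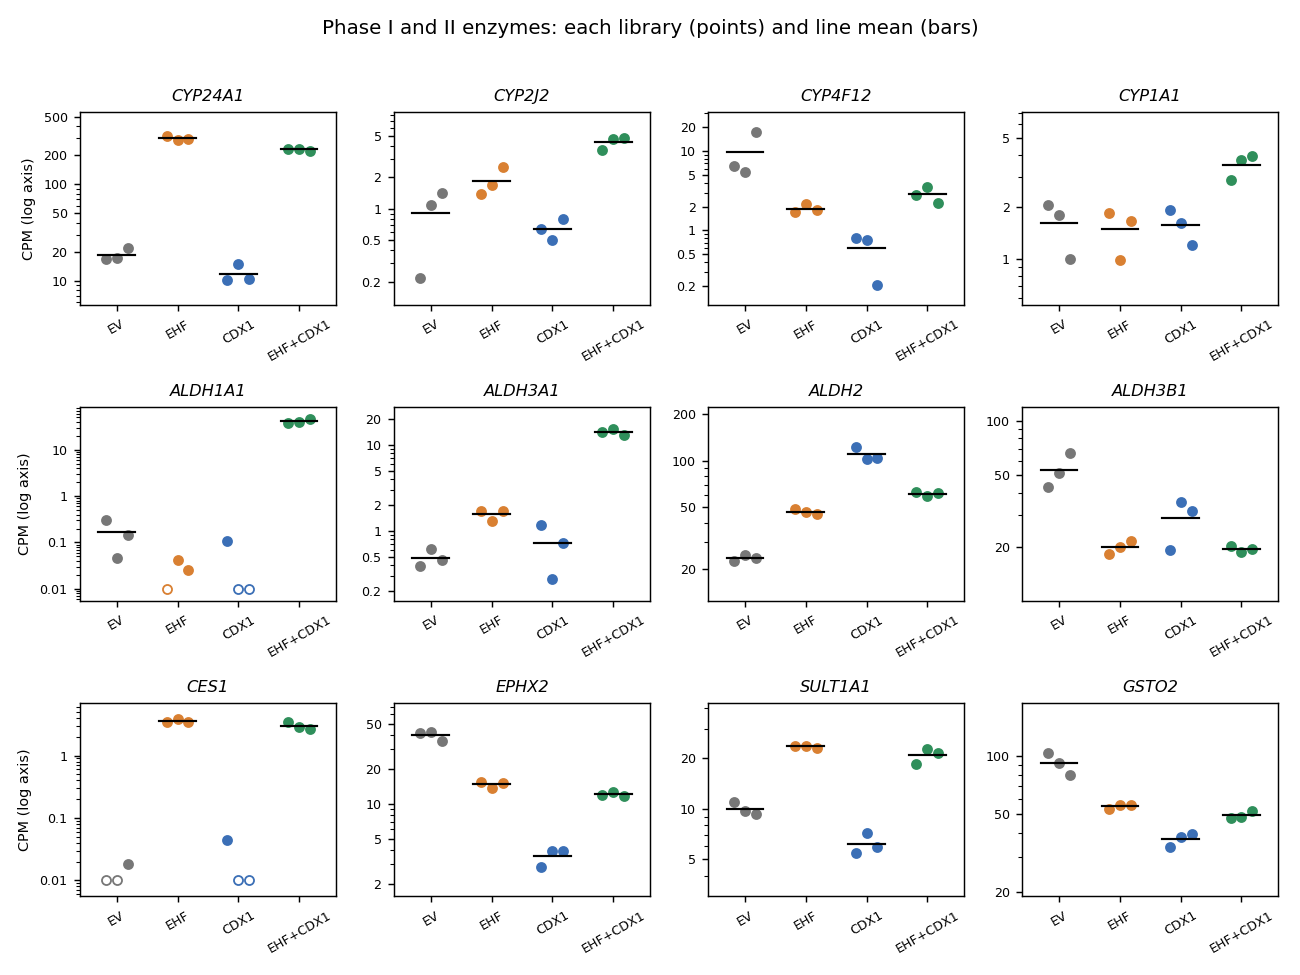
CPM on a log axis of 12 phase I and II enzymes in each library (points; open points, drawn at 0.01, hold 0 reads) of the 4 lines (x axis), with the line mean as a bar where no library is at 0. CYP24A1 and CES1 are high in both lines with EHF, ALDH1A1 and ALDH3A1 in EHF+CDX1 alone, and EPHX2 and GSTO2 are highest in EV.

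Of the 14 phase II genes, 1 was higher and 1 lower in EHF+CDX1 over EV cells, the smallest share called in any class. SULT1A1 (chr16:28605258-28623375), a phenol sulfotransferase, was at 11, 9.75 and 9.39 CPM in EV, 23.7, 23.7 and 23.2 in EHF, 5.43, 7.2 and 5.92 in CDX1 and 18.5, 22.8 and 21.4 in EHF+CDX1 libraries. As with CYP24A1, the lines with EHF were above both others. It rose in EHF (1.23, SE 0.13, edgeR adjusted p = 8.5e-04) and EHF+CDX1 cells (1.06, SE 0.13, edgeR adjusted p = 0.00481), with an interaction of 0.53 that did not pass (SE 0.18, edgeR adjusted p = 0.535). SULT1A genes are close copies of each other, so that reads may have been split. GSTO2 (chr10:104269184-104304950), an omega-class glutathione transferase, was at 104, 92.4 and 80.0 CPM in EV, 53.5, 56.1 and 56 in EHF, 34.0, 38.0 and 39.4 in CDX1 and 47.7, 48.7 and 51.9 in EHF+CDX1 libraries. No line overlapped another. It fell in CDX1 (-1.31, SE 0.10, edgeR adjusted p = 1.1e-05) and EHF+CDX1 cells (-0.90, SE 0.10, edgeR adjusted p = 0.0136). The latter call was lost without EV replicate 1 (-0.80, edgeR adjusted p = 0.0634) or EHF+CDX1 replicate 1 or 2 (-0.87 each, edgeR adjusted p = 0.0539 and 0.0547), and in the limma voom fit (-0.89, adjusted p = 0.0538).

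SULT2B1 (chr19:48552172-48599427), which sulfates cholesterol, was at 5, 4.50 and 5.44 CPM in EV, 3.78, 4.79 and 3.50 in EHF, 18.3, 14.3 and 13.4 in CDX1 and 3.16, 3.28 and 3.04 in EHF+CDX1 libraries. It was high with CDX1 alone and lowest with both factors. The log2 fold change of CDX1 over EV cells was 1.62 (SE 0.17, edgeR adjusted p = 4.3e-05), that of EHF+CDX1 over CDX1 cells was -2.27 (SE 0.17, edgeR adjusted p = 1.9e-06), and the interaction was -1.96 (SE 0.24, edgeR adjusted p = 1.6e-04).

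The reverse pattern was seen in 4 glutathione S-transferases and in NAT1. GSTA4, GSTK1, GSTM2, GSTM4 and NAT1 fell in CDX1 compared to EV cells and were higher again in EHF+CDX1 compared to CDX1 cells, while GSTO2 passed the first test alone. The pattern was common among all genes: 23.3% were lower in CDX1 than in EV cells, and 69.7% of these were higher in EHF+CDX1 than in CDX1 cells. GSTM4, a mu-class transferase, was 11.7 ± 2.11 CPM in EV, 13.9 ± 1.06 in EHF, 1.90 ± 0.346 in CDX1 and 14.1 ± 2.16 in EHF+CDX1 cells (SD, n = 3 each). The difference on the log2 scale was -2.63 between CDX1 and EV cells (SE 0.19, edgeR adjusted p = 6.4e-07) and 2.89 between EHF+CDX1 and CDX1 cells (SE 0.19, edgeR adjusted p = 4.2e-07). GSTK1, a mitochondrial and peroxisomal transferase, was 69.0 ± 2.34, 54 ± 4.15, 15.9 ± 2.54 and 59.9 ± 0.878 CPM in the EV, EHF, CDX1 and EHF+CDX1 lines (SD, n = 3 each), with log2 fold changes of -2.12 (SE 0.12, edgeR adjusted p = 1.2e-07) and 1.92 (SE 0.12, edgeR adjusted p = 5.1e-07). GSTA4, which detoxifies lipid peroxidation products, was low throughout, at 1.22 ± 0.0328, 0.558 ± 0.172, 0.257 ± 0.0236 and 1.05 ± 0.0848 CPM (SD, n = 3 each). NAT1, the arylamine acetyltransferase, was 4.04 ± 0.366, 3.29 ± 0.215, 1.87 ± 0.610 and 4.65 ± 0.171 CPM (SD, n = 3 each). GSTM2 rested in part on EV replicate 3 (0.861, 1.33 and 6.84 CPM in EV), and its log2 fold change in CDX1 cells was -2.61 with that library and -1.08 without it, past the test both times. GSTM genes lie in a cluster of close copies, so that their reads may have been split. GSTO1, GSTP1, MGST1, MGST2, MGST3 and the thiopurine methyltransferase TPMT passed in none of the 3 comparisons with EV cells when all libraries were used. GSTP1, at 485 and 490 CPM in EV replicates 1 and 2 and at 164 CPM in replicate 3, was -0.70 in CDX1 over EV cells (edgeR adjusted p = 0.281), and without replicate 3 it was -1.06 and passed (edgeR adjusted p = 8.7e-08).

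The 5 pumps differed in direction. ABCB1 (chr7:87503017-87713295) was at 4.09, 4.07 and 6.05 CPM in EV, 8.14, 7.44 and 7.35 in EHF, 68.5, 41.5 and 60.9 in CDX1 and 22.2, 20.2 and 23.8 in EHF+CDX1 libraries. No 2 lines overlapped, and the CDX1 line was highest. It rose over EV in CDX1 (3.56, SE 0.21, edgeR adjusted p = 9.7e-08) and EHF+CDX1 cells (2.19, SE 0.20, edgeR adjusted p = 3.9e-05), and in EHF cells it was 0.66 (SE 0.20, edgeR adjusted p = 0.704, and 0.0269 against no change). With both factors it was below CDX1 alone (-1.37, SE 0.19, edgeR adjusted p = 6.5e-04), and the interaction was -2.03 (SE 0.27, edgeR adjusted p = 3.1e-04). CDX1 itself was higher in the line with both factors.

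ABCG2 (chr4:88090264-88231626), the breast cancer resistance protein, was at 1.51, 1.18 and 1.60 CPM in EV, 3.46, 4.26 and 4.25 in EHF, 3.29, 2.43 and 2.68 in CDX1 and 5.33, 5.64 and 5.11 in EHF+CDX1 libraries. Each line with a factor was above EV, and EHF+CDX1 was above all others. It rose in EHF (1.47, SE 0.19, edgeR adjusted p = 0.00162), CDX1 (0.95, SE 0.19, edgeR adjusted p = 0.0258) and EHF+CDX1 cells (1.89, SE 0.19, edgeR adjusted p = 1.1e-04). The call with CDX1 alone was lost without EV replicate 2 (0.84, edgeR adjusted p = 0.0809) or CDX1 replicate 1 (0.82, edgeR adjusted p = 0.0945), and with library totals alone (0.62, edgeR adjusted p = 0.329). Over CDX1 it was 0.94 higher with both factors (SE 0.18, edgeR adjusted p = 0.0249), a call lost without CDX1 replicate 2 or 3 or EHF+CDX1 replicate 2, at 0.85 to 0.91 (edgeR adjusted p from 0.0554 to 0.0763), and in the limma voom fit (0.54, adjusted p = 1).

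ABCC2 (chr10:99782640-99852594), the pump MRP2 of the apical membrane, was at 137, 136 and 207 CPM in EV, 91.8, 89.9 and 88.9 in EHF, 57, 62 and 68.9 in CDX1 and 76.3, 78.2 and 74.0 in EHF+CDX1 libraries. The lines did not overlap. It fell in CDX1 (-1.35, SE 0.15, edgeR adjusted p = 1.1e-04) and EHF+CDX1 cells (-1.07, SE 0.15, edgeR adjusted p = 0.00869). Without EV replicate 3 the latter was -0.84 and still passed, while in the limma voom fit with all libraries it was -1.01 and did not (adjusted p = 0.0811). ABCC1 (chr16:15949143-16143053), the broad-range pump MRP1, was at 196, 195 and 316 CPM in EV, 154, 154 and 157 in EHF, 157, 139 and 144 in CDX1 and 145, 138 and 140 in EHF+CDX1 libraries. It was lower than EV in every library of the other lines, with log2 fold changes of -0.61, -0.68 and -0.74 (SE 0.16 each) that passed against no change but not against a 1.5-fold change (edgeR adjusted p = 0.849, 0.204 and 0.331). They were smaller without EV replicate 3, at -0.34, -0.41 and -0.47.

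ABCC3 (chr17:50634881-50692253), the pump MRP3 of the basolateral membrane, was not called with all libraries, and its EV replicates disagreed. It was at 9.35, 9.42 and 141 CPM in EV, 37.8, 31.4 and 32.8 in EHF, 91.3, 118 and 103 in CDX1 and 43.4, 42.4 and 43.1 in EHF+CDX1 libraries. EV replicate 3 was above every other library and replicates 1 and 2 below every other. With all libraries the log2 fold changes over EV were -0.67, 0.95 and -0.33 in EHF, CDX1 and EHF+CDX1 cells (SE 0.77, 0.76 and 0.76), and none passed. Without replicate 3 they were 1.85, 3.48 and 2.19, and all 3 passed.

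**Figure D4:**
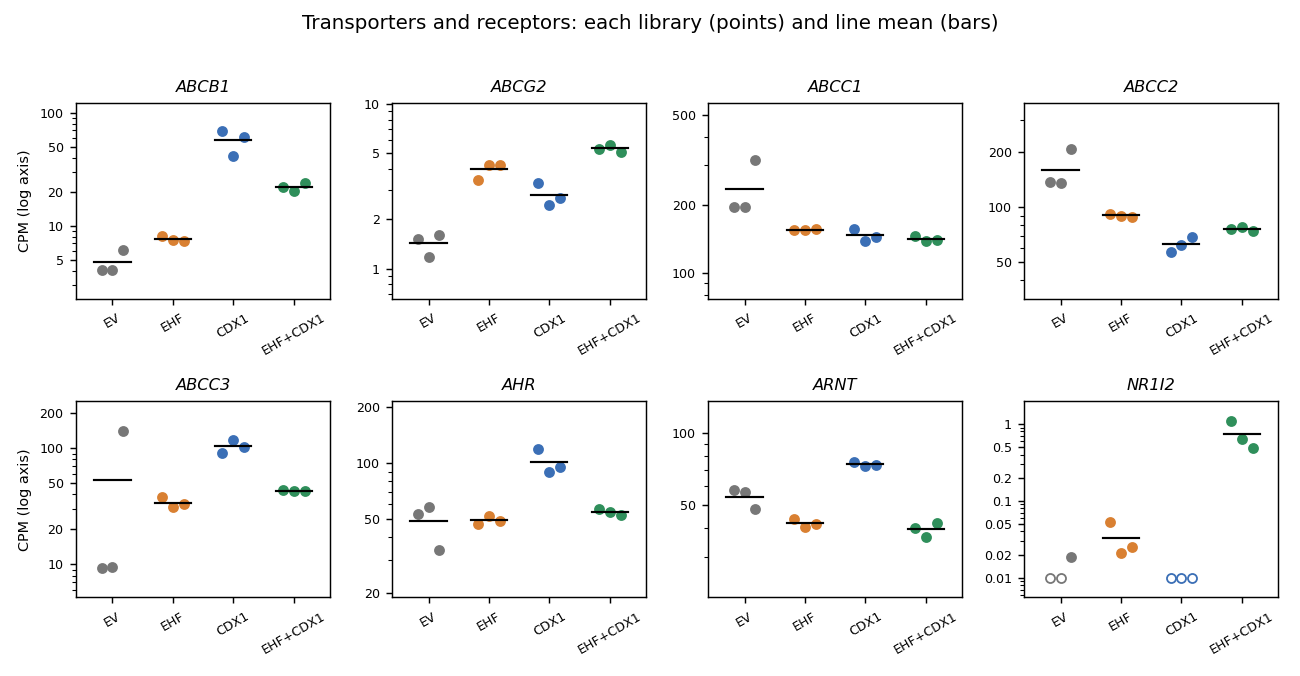
CPM on a log axis of the 5 pumps and 3 receptor genes in each library (points; open points, drawn at 0.01, hold 0 reads) of the 4 lines (x axis), with the line mean as a bar where no library is at 0. ABCB1, AHR and ARNT are highest in CDX1, ABCG2 and NR1I2 in EHF+CDX1, and the ABCC3 point at 141 CPM is EV replicate 3.

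Of the receptors, AHR (chr7:17298652-17346147) was at 53.6, 58 and 34.1 CPM in EV, 46.9, 52.3 and 49.1 in EHF, 120, 89.8 and 94.9 in CDX1 and 56.9, 54.9 and 52.5 in EHF+CDX1 libraries. Only the CDX1 line stood apart. It rose there (1.07, SE 0.17, edgeR adjusted p = 0.00553), but with library totals alone this was 0.70 (edgeR adjusted p = 0.200) and in the limma voom fit 0.90 (adjusted p = 0.105). With both factors it was lower than with CDX1 alone (-0.89, SE 0.17, edgeR adjusted p = 0.0366), a call lost without CDX1 replicate 1 or any 1 EHF+CDX1 library, at -0.92 to -0.75 (edgeR adjusted p from 0.0528 to 0.152). That call was also lost with library totals alone (-0.53, edgeR adjusted p = 0.543), in the limma voom fit (-0.61, adjusted p = 0.801) and in DESeq2 (-0.9, adjusted p = 0.259). ARNT (chr1:150809713-150876599) was at 57.4, 56.6 and 47.8 CPM in EV, 43.4, 40.4 and 41.6 in EHF, 75.7, 73.1 and 73.4 in CDX1 and 40, 36.7 and 41.7 in EHF+CDX1 libraries. The CDX1 line was above all others and the lines with EHF were below both lines without it. It passed only in EHF+CDX1 against CDX1 cells (-0.91, SE 0.09, edgeR adjusted p = 0.00157), and there not with library totals alone (-0.55, edgeR adjusted p = 0.535) or in the limma voom fit (-0.74, adjusted p = 0.131).

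NR1I2 (chr3:119782101-119818487) was at 0, 0 and 0.0184 CPM in EV, 0.0532, 0.021 and 0.025 in EHF, 0 in each CDX1 library and 1.10, 0.645 and 0.484 in EHF+CDX1 libraries. At most 2 reads were found per library outside the EHF+CDX1 line, which held 63, 34 and 7 reads. Against the limit of 3 counts per library, the level with both factors was at least 6.83-fold higher than in EV, at least 8.57-fold higher than in EHF and at least 10.2-fold higher than in CDX1 cells. It remained the least abundant of the tested members, at a log2 RPKM of -3.06 ± 0.73 (SD, n = 3).

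Across the classes, 28 of the 47 members passed in at least 1 of the 3 comparisons with EV cells, which share their controls, where 49.6% of all genes did. CYP4F12, EPHX2, ALDH2 and ABCG2 passed in all 3, as did 4.13% of all genes. The other 19 passed in none. With CDX1 alone 12 members were lower than in EV, and 9 of these (CYP2U1, CYP4F12, EPHX2, CES2, GSTA4, GSTK1, GSTM2, GSTM4 and NAT1) were higher in EHF+CDX1 than in CDX1 cells, as were 69.7% of all genes lower with CDX1 alone. The opposite order was seen in 4 of the 7 members higher with CDX1 alone (ALDH2, SULT2B1, ABCB1 and AHR) and in 69.1% of all such genes. Both comparisons use the CDX1 libraries, so that the values are given side by side and not as independent results. The 3 CDX1 libraries were below all other 9 in 18 of the 47 members and in 25.8% of all genes. They were above all 9 in 6 members, with a background of 27.6%. The 3 EHF+CDX1 libraries were above all other 9 in 8 members (ALDH1A1, ALDH3A1, NR1I2, CYP1A1, CYP2J2, CYP3A5, NAT1 and ABCG2) and in 6.06% of all genes. Against the EV libraries alone they were above in 17 members (23.1% of all genes) and below in 12 (20.9%).

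The interaction passed the test as positive in 16 members and as negative in 3, where 20.2% of all genes were called positive and 18.0% negative. Leaving out ALDH1A1 and NR1I2, whose levels without both factors were at or near the count limit, the highest were CYP4F12 (4.68, SE 0.69, edgeR adjusted p = 2.4e-04), EPHX2 (3.19) and GSTA4 (3.05, SE 0.39, edgeR adjusted p = 1.1e-04), and the lowest were ABCB1 (-2.03), SULT2B1 (-1.96) and ALDH2 (-1.82, SE 0.12, edgeR adjusted p = 2.4e-06). CDX1 itself was higher in the line with both factors, and EHF was lower in CDX1 than in EV cells, so that the interaction does not compare equal levels of the factors. Without EV replicate 3, 16 members were positive and 5 negative, with 23.4% and 24.3% of all genes, and CYP3A5 (1.51 with it, 0.99 without it) and NR1I2 no longer passed. ABCC3 was then the lowest (-3.13), and CYP4F11 (-1.35), CYP1A1 (1.51) and GSTP1 (0.92) were also gained.

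EV replicate 3 differed by more than 2-fold from the mean of replicates 1 and 2 in 9 of the 47 members (19.1%) and in 14.8% of all genes. ABCC3, GSTM2, CYP4F11, CYP4F12, CYP2S1 and CYP4F3 were higher in it and GSTP1, GSTO1 and FMO5 lower. Leaving it out added ABCC3 (2.19), CYP3A5 (1.67) and CYP4F11 (1.37) to the members higher in EHF+CDX1 than in EV cells and ALDH1B1 (-0.76) to those lower, and removed CYP4F12. The other 14 calls kept their direction and passed both ways. With EHF alone 10 members were then higher and 4 lower (9.47% and 3.60% of all genes), CYP2J2, CYP4F11, ABCC3 and GSTO2 (-0.83, lower) being added. With CDX1 alone 9 were higher and 14 lower (26.2% and 24.9%), with CYP4F11, ABCC3, ALDH1A3 (-0.90, lower) and GSTP1 added. In EHF+CDX1 over CDX1 cells 23 were higher and 6 lower (25.8% and 22.3%), with CYP4F3 (0.93), GSTP1 (0.79) and ABCC3 (-1.28, lower) added.

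**Figure D5:**
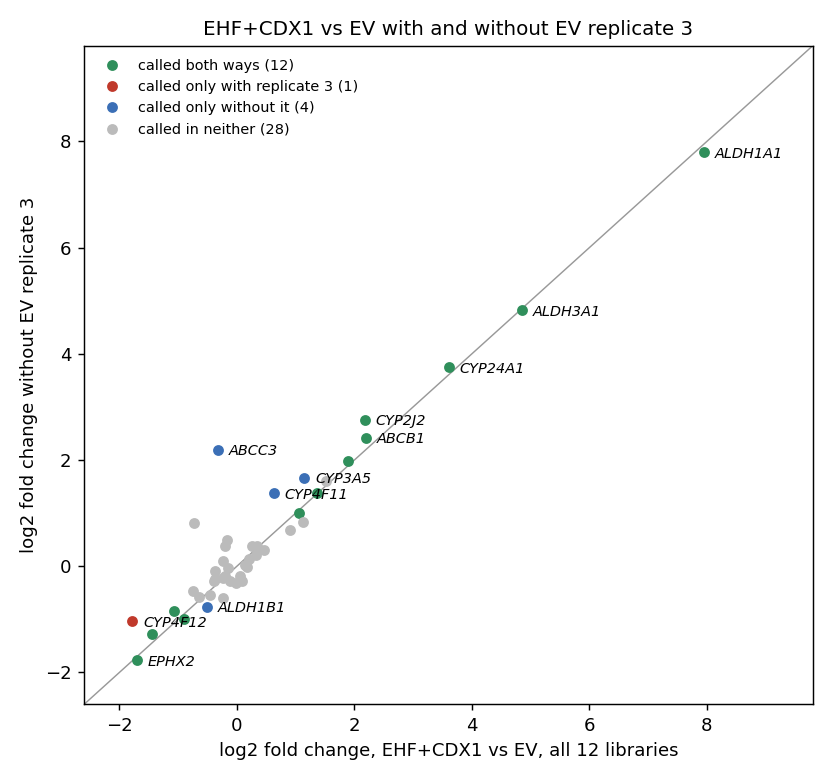
Log2 fold change of EHF+CDX1 over EV cells with all 12 libraries (x axis) and without EV replicate 3 (y axis) for 45 tested genes, with the line of equal values; CES1 and NR1I2, at the count limit in EV, are not drawn. The 12 genes called both ways lie near the line, CYP4F12 is called only with the library and ABCC3, CYP3A5, CYP4F11 and ALDH1B1 only without it.

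A wider list of 182 other genes of phase I, phase II, transport and their receptors was read beside the members, of which 102 were tested. In EHF+CDX1 over EV cells 22 of these were higher and 5 lower, where 7.30% and 3.13% of all genes were called. Without EV replicate 3 the counts were 28 and 8, and the background was 11.2% and 4.40%. The median log2 fold change of the list was -0.08. By class, 12 of 46 phase I, 4 of 14 phase II, 4 of 23 transport and 2 of 19 receptor genes were higher. With EHF alone 10 were higher and 5 lower (5.68% and 2.65% of all genes), and with CDX1 alone 24 and 34 (21.3% and 23.3% of all genes). The largest increases were in CYP2B6, a drug-oxidizing P450 and textbook target of NR1I2, in the carbonyl reductase CBR1 and in the aldo-keto reductase AKR1B10. CYP2B6 was at 11.5, 10.1 and 11.5 CPM in EHF+CDX1 libraries with at most 1 read per EV library, at least 101-fold higher. CBR1 was at 6.38, 7.04 and 6.22 CPM with at most 3 reads per library in the other lines, at least 60.2-fold higher than in EV cells. Both passed the filter only through lines in which they were high. AKR1B10 was 2.92 ± 0.373 CPM in EHF+CDX1 and 0.0777 ± 0.0739 CPM in EV cells (SD, n = 3 each, log2 4.89, SE 0.45). Its level in EV lay below the filter of 0.5 CPM, so it was tested only because of other lines, and no p-value is given for it. The largest decreases were in the organic anion carrier SLCO3A1 (-2.66, SE 0.29, edgeR adjusted p = 1.1e-04), the AHR repressor AHRR (-1.53, SE 0.14, edgeR adjusted p = 8.5e-05) and the ARNT relative ARNT2 (-1.35, SE 0.17, edgeR adjusted p = 0.00129).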

How the data were processed

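RNA-seq was made from HCT116 cells with a stranded, directional library kit and paired 150-base reads, 3 libraries for each of 4 lines. Per the labels and the study's methods, the authors aligned reads to GRCh38 (hg38) with Subread and counted them per RefSeq gene with featureCounts (version 2.0.0 of both in the submitters' processing notes), and deposited raw counts and log2 RPKM values. The strand setting of the counting is not given in the sources used here.

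From the counts, edgeR 4.0.16 (R 4.3.3) was fitted to all 12 libraries with TMM scaling and a quasi-likelihood dispersion over 15853 genes with at least 0.5 CPM (of the library total) in at least 3 libraries. Calls are from its test against a 1.5-fold change (glmTreat) with Benjamini-Hochberg adjustment over all tested genes at 0.05. Log2 fold changes, their SE and tests against no change are from the same fit. Log2 RPKM was used to compare genes and in 1 alternative. A line with no library above 3 reads was set to a floor of 3 counts in each library (0.0375 to 0.207 CPM), so that a fold against it is a lower bound and covers counting error only. Total counts had medians of 21234954 in EV, 43989997 in EHF, 46912536 in CDX1 and 49917119 in EHF+CDX1 cells. The members and lists were chosen with earlier results of these data known, so no p-value over the list is given. Values in every library are printed for members called in EHF+CDX1 over EV cells, the 3 highest and 3 lowest called interactions whose mean log2 CPM reached 0, the receptors, 4 P450 genes (CYP1A1, CYP1B1, CYP24A1 and CYP26A1) and the 5 pumps. From the wider list, the 3 largest called increases and decreases in EHF+CDX1 over EV cells with that mean level are named. Libraries with the same replicate number showed no shared deviation across lines, since 0 of 18 correlations of same-numbered deviations exceeded 0.1 (range -0.0653 to 0.0802). This cannot show whether such libraries were made together, and the main fit has no pairing. Alternatives were limma 3.58.1 (voom, and log2 RPKM), DESeq2 1.42.0, library totals, no filter, only the libraries compared, a replicate block and leaving out each library. The code was tested on simulated data.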

Additional observations from a re-analysis of the deposited data

Results flagged for a closer look

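In 17 members the change that went with EHF differed between the CDX1 background and the background without CDX1 by the test of the difference itself, the interaction against a 1.5-fold change in edgeR (all adjusted p under 0.05, on the log2 scale). It was positive in 14. With ALDH1A1 and NR1I2, 16 of the 47 members were called positive and 3 negative, against 20.2% and 18.0% of all genes. Among P450 genes it was 4.68 in CYP4F12, 1.73 in CYP4F3, 1.51 in CYP2U1 and 1.51 in CYP3A5. Among other phase I genes it was 3.19 in EPHX2, 2.56 in ALDH3A1, 1.83 in CES2 and 1.08 in ALDH1B1. Among phase II genes it was 3.05 in GSTA4, 2.65 in GSTM4, 2.27 in GSTK1, 1.61 in NAT1 and 1.15 in GSTO2, and in the pump ABCC2 it was 1.11. It was negative in ABCB1 (-2.03), SULT2B1 (-1.96) and ALDH2 (-1.82). ALDH1A1 and NR1I2 are given no value, since their levels without both factors were at or near the count limit. The backgrounds differed in the factors as well. Between EHF+CDX1 and CDX1 cells CDX1 itself differed by 3.37 on the log2 scale, and EHF was 4.6 lower on that scale in CDX1 than in EV cells. The part of these differences in the interaction was not tested.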

How the results depend on the processing

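None of the 65 single-gene calls changed direction under the alternatives run. Some values that were not called with all libraries did change sign, among them ABCC3 in EHF (-0.67) and EHF+CDX1 over EV cells (-0.33), at 1.85 and 2.19 without EV replicate 3, and GSTM2 in EHF+CDX1 over EV cells (-0.73), at 0.81 without it. Of 1090 values of 65 single-gene calls recomputed under the alternatives, 998 stayed on the same side of the threshold and 92, in 17 of the calls, did not, 35 of them by leaving out a library. Counts of members called that moved by over 1.5 times were as follows, and the cause was not tested except where the alternative itself sets it. Against no change, a weaker criterion by construction, 11 members were lower with EHF alone, 11 were higher and 22 lower with CDX1 alone, 10 were lower in EHF+CDX1 over EV cells, 7 were higher and 1 lower over EHF cells, 8 were lower over CDX1 cells and 7 interactions were negative. With library totals in place of TMM, 4 were higher and 21 lower with CDX1 alone and 2 were lower in EHF+CDX1 than in CDX1 cells, while the median of all genes became -0.37 and 0.39. With only the libraries compared in the fit, 4 were higher with CDX1 alone, 2 were lower in EHF+CDX1 over EV cells, and 7 were higher and 1 lower over EHF cells. In EHF+CDX1 over EV cells, 2 were lower by limma voom, 2 by limma on log2 RPKM and 3 by DESeq2, and the median of the members was 0.16 by voom. Over CDX1 cells, 2 were lower by voom and 2 on log2 RPKM. Leaving out each library gave 3 to 5 lower members and a median of 0.03 to 0.22 in EHF+CDX1 over EV cells and 3 to 5 negative interactions.

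With the replicate number as a block, EHF+CDX1 over EV cells gave 10 members higher and 4 lower with a median of 0.14, and ALDH3A1 in EHF over EV (1.71, edgeR adjusted p = 0.0589), CYP4F12 in EHF+CDX1 over EV (-1.74, edgeR adjusted p = 0.106) and CYP1A1 in EHF+CDX1 over CDX1 cells (1.16, edgeR adjusted p = 0.0514) no longer passed, nor did the interaction of NR1I2. No shared deviation of same-numbered libraries was seen, which cannot show whether they were made together. After the data were seen, the wider list was also counted without EV replicate 3, with 28 genes higher and 8 lower in EHF+CDX1 over EV cells (11.2% and 4.40% of all genes).

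Depth limits CES1 and NR1I2, and ALDH1A1 against EHF cells, to lower bounds, and NR1I2 and CYP2J2 rest on few reads. With 3 libraries a line, a permutation test of 1 gene could not go below p = 0.1.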

Other observations

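The 2 members that were not tested had few reads in every line. ADH1C, which oxidizes ethanol, had 1, 0 and 1 reads in the EV libraries, 0, 0 and 2 in EHF, 4, 5 and 6 in CDX1 and 17, 6 and 0 in EHF+CDX1 libraries. GSTM3, a mu-class glutathione transferase, had 0, 0 and 5 reads in EV, 0 in each EHF library, 1, 0 and 0 in CDX1 and 17, 7 and 1 in EHF+CDX1 libraries. The highest count of both was in EHF+CDX1 replicate 1, a library of greater depth than replicate 3, and their ranges overlapped those of other lines.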
